A study of Homo sapiens with 12 samples.

Results

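The 7 genes that encode the INK4 and CIP/KIP inhibitors of cyclin-dependent kinases were described across RNA level, chromatin accessibility and splicing in palbociclib-treated breast cancer cells. The members were chosen by symbol as CDKN1A, CDKN1B, CDKN1C, CDKN2A, CDKN2B, CDKN2C and CDKN2D, and all 7 were among the 19460 genes of the RNA table. The cells were T-47D, an established human breast cancer line of epithelial cells with a genotype labelled WT, obtained from ATCC and grown in DMEM with 10% serum. Each assay held 3 libraries from cells given 1 µM palbociclib, a small molecule that inhibits CDK4 and CDK6, and 3 from cells given DMSO, the solvent, both for 24 h. Poly(A) RNA was sequenced, and chromatin was opened to the transposase Tn5 (ATAC-seq) in cells kept with penicillin and streptomycin, where the control medium held 0.1% DMSO. Both groups of each assay come from this 1 line. The ATAC labels call the libraries biological replicates, while the RNA labels say only rep, with no kind of replicate.

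Cyclin-dependent kinases drive the cell cycle, and these proteins are their built-in brakes. The INK4 proteins p16 (CDKN2A), p15 (CDKN2B), p18 (CDKN2C) and p19 (CDKN2D) bind CDK4 and CDK6 and keep the D-type cyclins off, so they act on the same kinases as palbociclib. The CIP/KIP proteins p21 (CDKN1A), p27 (CDKN1B) and p57 (CDKN1C) bind whole cyclin-CDK complexes, block CDK2 in particular, and also help cyclin D to assemble with CDK4. Much of the control of p27 and p21 is known to act on the protein, which these data do not measure.

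RNA levels are FPKM, read counts scaled for gene length and library, given as mean ± SD over 3 libraries per group. Changes are palbociclib over DMSO on the log2(FPKM + 1) scale, from limma over the 15869 genes whose FPKM averaged 0.5 or more. They were called at an adjusted p under 0.05. Adding 1 makes changes smaller at low FPKM, so their sizes are not directly comparable between genes of unlike level. The changes rest on the scaling of the deposited FPKM and were not centred, and the median change over all genes tested was 0.0023. E2F1 and MKI67, which dividing cells express, changed by -2.91 and -3.60 on that scale. All 8 luminal markers were detected, with a summed FPKM of 5419 to 5939 in DMSO and 7312 to 8084 in palbociclib libraries. The largest parts were KRT19, KRT8 and KRT18, at 2113, 1698 and 996 FPKM in DMSO. Of the 8, 7 were called higher, beside 20.9% of all genes. EPCAM went the other way, from 195.6 to 177.1 FPKM, and was not called. The basal marker TP63 stayed at or under 0.113 and the leukocyte marker CD68 at or under 0.173. Of the fibroblast markers, COL1A1 was present at 23.7 FPKM in DMSO and 25.1 in palbociclib libraries and was not called. COL1A2 was at 0.453 and 0.315 FPKM, under the level filter, and PDGFRB was not among the genes measured. The part of that luminal difference in the results below was not tested. ATAC counts in peaks summed to 12830062 to 18250496 per library.

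Of the 6 members that passed the level filter, 5 fell and 0 rose with palbociclib. The members that fell were CDKN1A, CDKN1B, CDKN2A, CDKN2C and CDKN2D, CDKN2B was not called, and CDKN1C was under the filter. Among all genes tested, 22.9% were called lower and 20.9% higher by the same rule. The 5 that fell were also the members whose DMSO and palbociclib libraries did not overlap, as was the case for 54.7% of all genes tested. The members' median change was -0.71. In bulk RNA, fewer cells of a kind and less RNA per cell cannot be told apart.

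Among the CIP/KIP genes, CDKN1A (ENSG00000124762), which encodes p21, an inhibitor known to be induced by DNA damage, was at 15.96, 17.67 and 19.52 FPKM in the DMSO libraries and at 7.99, 9.06 and 9.71 in the palbociclib libraries. Every palbociclib library was below every DMSO library, and the mean went from 17.7 ± 1.78 to 8.92 ± 0.871 FPKM (SD, n = 3), which is 50.3% of the DMSO mean. CDKN1A fell by 0.92 on the log2 scale (SE 0.0856, limma adjusted p = 5.80e-05). In the authors' deposited table the CDKN1A log2 change was -0.99.

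CDKN1B (ENSG00000111276) encodes p27, the main inhibitor of cyclin E-CDK2 in resting cells. It stood at 14.97, 14.45 and 14.62 FPKM in DMSO and at 12.20, 10.93 and 11.74 in palbociclib libraries. The groups did not overlap, but the step was the smallest among the members that fell. CDKN1B went from 14.7 ± 0.261 to 11.6 ± 0.646 FPKM (SD, n = 3), or 79.2% of the DMSO mean, a change of -0.31 (SE 0.0505, limma adjusted p = 0.00129).

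CDKN1C (ENSG00000129757), the imprinted gene for p57, was nearly silent. Its libraries read 0.431, 0.481 and 0.109 FPKM in DMSO and 0.602, 0.153 and 0.312 in palbociclib. The groups overlapped widely, and in the authors' deposited table its mean normalized count was only 17.3. The means were 0.340 ± 0.202 and 0.356 ± 0.228 FPKM (SD, n = 3; exact permutation test, two-sided, p = 0.9, where 0.1 is the smallest p that 3 against 3 allows). A change in CDKN1C was not detectable at this level.

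Among the INK4 genes, CDKN2A (ENSG00000147889) had the highest FPKM of all members in both groups. By the authors' mean normalized count, which pools both groups and is not scaled for gene length, it stood at 834. That was below CDKN1B (1824), CDKN1A (1491) and CDKN2C (1176), so the first place of CDKN2A holds for FPKM only. This gene encodes p16 and, from another first exon and reading frame, p14ARF, which binds MDM2, so that its gene-level FPKM adds up transcripts of both. The libraries read 44.85, 43.11 and 43.94 FPKM in DMSO and 34.65, 30.22 and 27.22 in palbociclib. All palbociclib libraries were lower, with more spread among them than among the DMSO libraries. CDKN2A went from 44.0 ± 0.871 to 30.7 ± 3.74 FPKM (SD, n = 3), 69.8% of the DMSO mean, and fell by 0.51 on the log2 scale (SE 0.0754, limma adjusted p = 0.000793).

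CDKN2B (ENSG00000147883), the neighbour of CDKN2A that encodes p15 and is known as a target of TGF-beta signalling, was the exception among the INK4 genes in that it was not lower on average. Its libraries read 2.58, 2.73 and 2.95 FPKM in DMSO and 2.73, 4.00 and 3.15 in palbociclib. The groups overlapped, with 1 palbociclib library inside the DMSO range. The change was 0.18 (95% interval -0.06 to 0.43, limma adjusted p = 0.204), an interval that holds a small fall, no change and a rise. Without palbociclib replicate 2 the change was 0.07. The antisense gene CDKN2B-AS1 overlaps this locus, and the strand used in counting is not given in the sources used here.

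CDKN2C (ENSG00000123080), the gene for p18, changed most among the members. It read 22.27, 21.35 and 23.02 FPKM in DMSO and 4.95, 5.44 and 4.57 in palbociclib libraries. The lowest DMSO library was far above the highest palbociclib library. CDKN2C went from 22.2 ± 0.837 to 4.98 ± 0.437 FPKM (SD, n = 3), a level 4.46-fold lower, and the log2 change was -1.96 (SE 0.0631, limma adjusted p = 5.76e-08). In the authors' deposited table its log2 change was -2.16.

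CDKN2D (ENSG00000129355) encodes p19, an INK4 protein whose level is known to vary along the cell cycle. It read 8.34, 7.60 and 7.23 FPKM in DMSO and 4.01, 3.50 and 3.28 in palbociclib libraries. The groups were well apart. The mean went from 7.72 ± 0.564 to 3.60 ± 0.378 FPKM (SD, n = 3), 46.5% of the DMSO mean, and CDKN2D fell by 0.93 on the log2 scale (SE 0.0792, limma adjusted p = 3.37e-05).

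**Figure D1:**
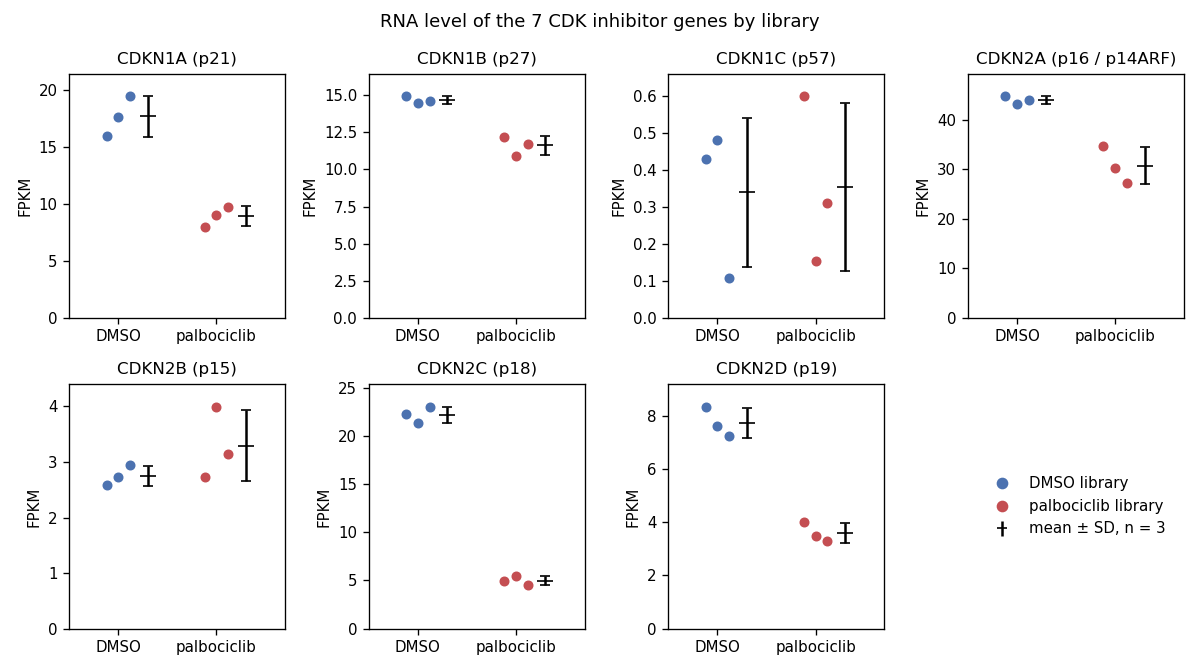
RNA level in FPKM (linear axes from 0, a separate scale for each gene) of the 7 inhibitor genes, with a point for each library and the mean ± SD of 3 libraries beside it. CDKN1A, CDKN1B, CDKN2A, CDKN2C and CDKN2D had all palbociclib points below all DMSO points, while the points of CDKN2B and CDKN1C overlapped.

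The make-up of the inhibitor pool shifted along with its size. FPKM is scaled per length, so levels may be added between genes, but the sums then depend on the lengths used. CDKN2A was highest by FPKM but not by mean normalized count, so its part in these sums holds for FPKM only. The CIP/KIP genes summed to 32.7 ± 1.45 FPKM in DMSO and 20.9 ± 0.819 in palbociclib libraries (SD, n = 3), or 63.8% of the DMSO mean. The INK4 genes summed to 76.7 ± 1.68 and 42.6 ± 4.10 FPKM, or 55.5%. The lower sum of the INK4 genes rested on CDKN2A, CDKN2C and CDKN2D, and no test was made of these sums.

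Of the sum over all members, CDKN2C made up 20.3 ± 0.398% in DMSO and 7.86 ± 0.647% in palbociclib libraries (SD, n = 3). CDKN2A supplied 40.2 ± 0.776% and 48.2 ± 3.14%, and CDKN1B 13.4 ± 0.280% and 18.3 ± 1.164%. CDKN2B went from 2.52 ± 0.143% to 5.21 ± 1.123% of a smaller sum. These shares are of RNA by FPKM, not of read counts or of protein.

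By FPKM the order in DMSO was CDKN2A, CDKN2C, CDKN1A, CDKN1B, CDKN2D, CDKN2B and CDKN1C, and no 2 neighbours in this order overlapped over their 3 libraries. In palbociclib it was CDKN2A, CDKN1B, CDKN1A, CDKN2C, CDKN2D, CDKN2B and CDKN1C. There the libraries of CDKN2D (3.28 to 4.01 FPKM) and CDKN2B (2.73 to 4.00 FPKM) overlapped, so their order is not resolved. By FPKM, CDKN2C thus moved from the second place to the fourth, below both p21 and p27 genes. By the authors' mean normalized count over both groups, CDKN2C (1176) lay below both of these genes, and CDKN2B (557) lay above CDKN2D (318). The order by count within each group was not analysed, so this move holds for FPKM only.

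**Figure D2:**
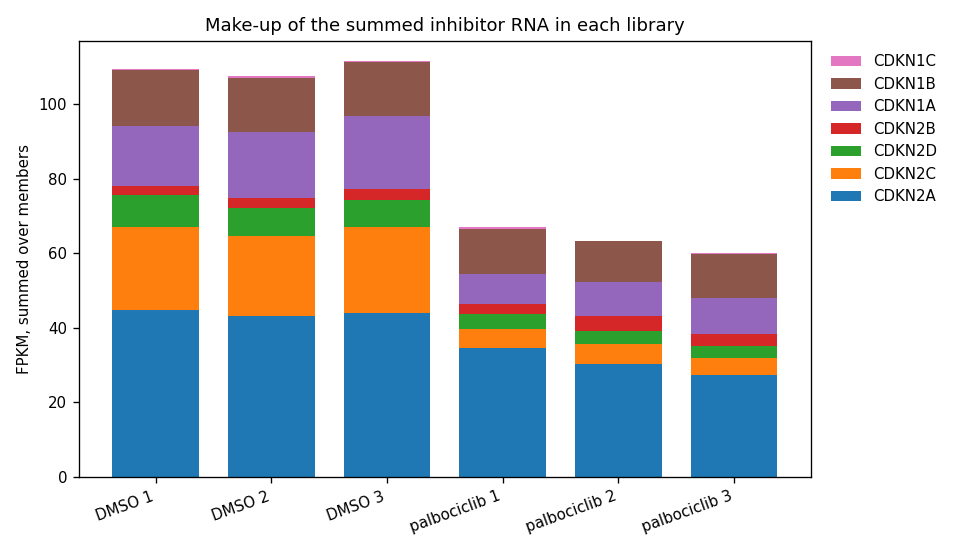
FPKM of the 7 inhibitor genes stacked to their sum (linear axis from 0) in each RNA library. The sum lay between 107.4 and 111.4 FPKM in the 3 DMSO libraries and between 59.97 and 67.1 in the 3 palbociclib libraries, and the CDKN2C layer was the one that narrowed most.

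Chromatin at these genes was read in the table of 38121 accessible peaks, with counts scaled to the library's TMM-adjusted total in peaks (CPM) and the edgeR quasi-likelihood test. Within 10 kb of a member lay 5 peaks, of which 4 were less accessible with palbociclib and 0 more. Of all peaks, 6.46% were called lower and 5.41% higher. The same 4 peaks had groups that did not overlap, as did 28.3% of all peaks. They lay at CDKN1A (2 peaks), CDKN1B and CDKN2D, while the peak at CDKN2C was not called.

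The 250 bases before starts of genes with peaks are shown. The peaks at CDKN1B, CDKN2D and the CDKN2C start 50960745 cover these windows in full, while the CDKN1A window and that of the CDKN2C start 50970245 are shown as windows that no listed peak overlaps. The window before the CDKN2C start 50968706 lies in an exon of the splicing table (50967936 to 50969899) and is not printed. They are RefSeq sequences on GRCh38.p14, written 5′ to 3′ on the strand of the gene up to the base before the start. Capitals mark the motifs that were found, the GC box GGGCGG (bound by SP1-type factors) and the E-box CACGTG (bound by MYC-type factors), on either strand, so that CCGCCC is a GC box on the other strand.
CDKN1A, chr6:36678464-36678713, plus strand: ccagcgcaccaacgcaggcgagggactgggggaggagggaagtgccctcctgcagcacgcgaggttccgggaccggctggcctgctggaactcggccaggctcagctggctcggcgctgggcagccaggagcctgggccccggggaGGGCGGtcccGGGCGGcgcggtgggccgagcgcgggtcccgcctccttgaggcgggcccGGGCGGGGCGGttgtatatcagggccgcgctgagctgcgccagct
CDKN1B, chr12:12717118-12717367, plus strand: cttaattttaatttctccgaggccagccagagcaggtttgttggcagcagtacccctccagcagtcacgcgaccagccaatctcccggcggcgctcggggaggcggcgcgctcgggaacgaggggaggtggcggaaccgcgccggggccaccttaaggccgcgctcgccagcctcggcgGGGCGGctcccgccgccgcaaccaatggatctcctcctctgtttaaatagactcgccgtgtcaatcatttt
CDKN2D, chr19:10568980-10569229, minus strand: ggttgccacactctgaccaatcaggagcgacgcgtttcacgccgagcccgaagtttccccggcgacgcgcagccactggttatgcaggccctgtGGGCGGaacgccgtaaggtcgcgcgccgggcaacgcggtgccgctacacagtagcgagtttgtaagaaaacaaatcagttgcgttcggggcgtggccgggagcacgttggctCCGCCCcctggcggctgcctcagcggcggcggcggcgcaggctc
CDKN2C, start 50960745, chr1:50960495-50960744, plus strand: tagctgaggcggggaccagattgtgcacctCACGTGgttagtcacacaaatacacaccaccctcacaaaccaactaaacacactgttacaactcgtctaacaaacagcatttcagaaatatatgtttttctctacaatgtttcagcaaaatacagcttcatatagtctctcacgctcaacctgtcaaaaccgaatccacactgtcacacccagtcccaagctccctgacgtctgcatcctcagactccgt
CDKN2C, start 50970245, chr1:50969995-50970244, plus strand: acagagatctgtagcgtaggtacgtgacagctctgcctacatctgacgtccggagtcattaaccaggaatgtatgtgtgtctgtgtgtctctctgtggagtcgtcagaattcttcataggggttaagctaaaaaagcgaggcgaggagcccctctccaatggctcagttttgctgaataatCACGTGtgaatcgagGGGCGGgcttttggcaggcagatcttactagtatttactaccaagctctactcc

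The set of RefSeq start sequences used held 9 starts for 6 of the members, and need not hold every start of a gene. For CDKN1A it held only 36678714, while the gene begins at 36676463. GGGCGG was found in 7 of the 9 windows, against 42.6% of all 35116 windows of 250 bases. CACGTG was found in 2, both of CDKN2C, against 6.34%. CDKN1A held 4 GC boxes, which lay 104, 94, 45 and 40 bases before the start, CDKN2D 2 and CDKN1B 1. The most, 5, were in the CDKN2C window before start 50968706, at 109, 105, 67, 60 and 49 bases before it. The E2F forms searched, TTTCCCGC, TTTCGCGC, TTTGCCGC and TTTGGCGC, were in 0 of the 9 windows and in 2.79% of all windows. The cell cycle homology region TTTGAA and the FOXO form GTAAACA were also in 0 of the 9, and in 13.3% and 2.98% of all windows. A match is a description of these letters, and no match says only that they are not in this window.

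The peak over the CDKN2D start, chr19:10568462-10569438, covers the whole CDKN2D window printed above. It stood at 154.5, 143.8 and 163.2 CPM in DMSO and at 117.9, 123.4 and 119.2 in palbociclib libraries. All palbociclib libraries were lower and close together. The mean went from 153.9 ± 9.70 to 120.2 ± 2.90 CPM (SD, n = 3), a log2 change of -0.36 (SE 0.0496, edgeR adjusted p = 1.98e-07). The RNA change was -0.93 on the log2(FPKM + 1) scale and -1.11 in the authors' deposited table, so the scales of peak and RNA differ.

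The CDKN1B start lay in the peak chr12:12716734-12717697. It read 50.7, 51.3 and 51.5 CPM in DMSO and 45.3, 38.4 and 39.7 in palbociclib libraries. The groups did not overlap, with the first palbociclib library nearest to the DMSO libraries. The change from 51.2 ± 0.411 to 41.2 ± 3.68 CPM (SD, n = 3) was -0.31 on the log2 scale (SE 0.0699, edgeR adjusted p = 0.00125). The RNA change was also -0.31, but on the log2(FPKM + 1) scale, and -0.34 in the authors' deposited table.

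Both CDKN1A peaks lay away from the printed start. The peak chr6:36680256-36680774 began 1542 bases after it, between the exons at 36678721 to 36678798 and 36682640 to 36682730 that the splicing table lists. It read 38.8, 35.6 and 40.9 CPM in DMSO and 26.2, 24.8 and 27.9 in palbociclib libraries, with no overlap. The mean went from 38.4 ± 2.69 to 26.3 ± 1.58 CPM (SD, n = 3), a log2 change of -0.54 (SE 0.0806, edgeR adjusted p = 8.71e-07).

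The other CDKN1A peak, chr6:36666922-36667597, lay 8866 bases before the gene. It read 22.96, 21.73 and 27.91 CPM in DMSO and 13.1, 15.5 and 14.5 in palbociclib libraries, again with no overlap. This peak lost most among the 5, with 24.2 ± 3.27 CPM in DMSO, 14.4 ± 1.20 in palbociclib (SD, n = 3) and a log2 change of -0.75 (SE 0.104, edgeR adjusted p = 1.68e-07). Whether it acts on CDKN1A was not tested.

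The gene whose RNA fell most had a peak that was not called. The peak chr1:50959978-50960778 covers the first of the 3 CDKN2C starts and is shared with the start of FAF1, which runs the other way. It read 96.6, 105.3 and 103.9 CPM in DMSO and 100.9, 96.1 and 101.3 in palbociclib libraries. The groups overlapped, and the log2 change was -0.04 (95% interval -0.14 to 0.07, edgeR adjusted p = 0.707). The RNA of FAF1, which encodes a ubiquitin-binding protein, went from 28.3 ± 0.213 to 20.8 ± 0.583 FPKM (SD, n = 3), a change of -0.42 (limma adjusted p = 3.84e-05) beside -1.96 for CDKN2C.

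At the other 2 CDKN2C starts, 50968706 and 50970245, no peak of this table overlapped the 250-base windows, so accessibility there was not analysed here. The same holds within 10 kb of CDKN2A, CDKN2B and CDKN1C. The peak nearest to CDKN2A and CDKN2B, chr9:22041748-22042247, lay 46424 and 32435 bases from them and changed by 0.04 (95% interval -0.20 to 0.29, edgeR adjusted p = 0.869). The change in CDKN2A RNA therefore has no accessibility value of its own beside it.

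**Figure D3:**
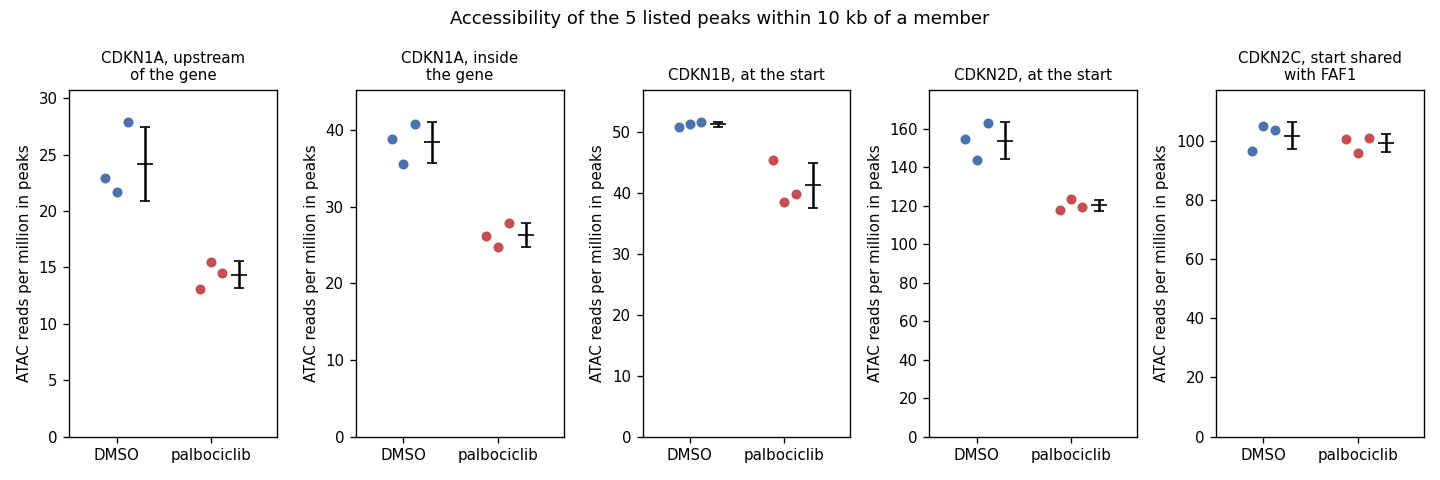
Accessibility in CPM (reads scaled to the library's TMM-adjusted total in peaks, linear axes from 0, a separate scale for each peak) of the 5 peaks within 10 kb of a member, with a point for each library and the mean ± SD of 3 libraries beside it. The palbociclib points lay below all DMSO points at the CDKN1A, CDKN1B and CDKN2D peaks and overlapped them at the peak shared by CDKN2C and FAF1.

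**Figure D4:**
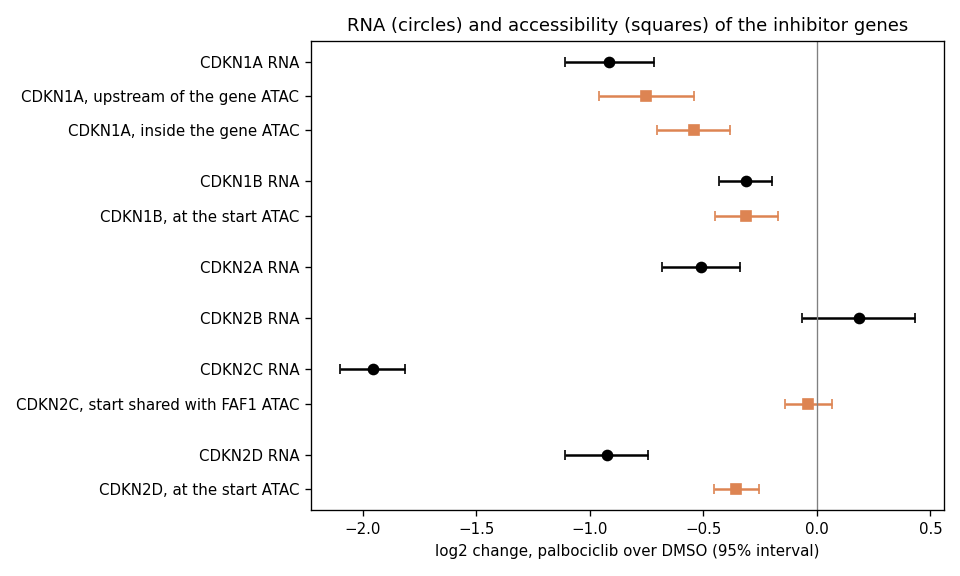
Log2 changes, palbociclib over DMSO, with 95% intervals, of the RNA of 6 members (circles, limma, log2(FPKM + 1) scale) and of the peaks within 10 kb of them (squares, edgeR, log2 counts). RNA and accessibility both lay below 0 for CDKN1A, CDKN1B and CDKN2D, whereas for CDKN2C the RNA stood at -1.96 and the peak at -0.04.

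Splicing was read in the counts of inclusion and skipping reads of 145447 events. The members had 9 events, 4 of CDKN1A, 3 of CDKN2A and 1 each of CDKN1B and CDKN2C. Only 2, both of CDKN2A, had the reads and the minor form that the test asked for, an average of 20 or more reads in each library and 5% or more of them in the rarer form. By the edgeR test 0 of these 2 were called, and 0 had an unadjusted p under 0.05, where 0.312% of all 13469 skipped exons tested were called. The level of an exon is the share of transcripts that hold it, from 0 to 1.

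Both tested events concern the CDKN2A exon at chr9:21993882-21994053, on the minus strand, between an upstream first exon and exon 2 (21970902 to 21971208). With the first exon at 21994139 to 21994411, the position of the first exon of p14ARF, its level was 0.0993, 0.0927 and 0.0700 in DMSO and 0.0580, 0.141 and 0.115 in palbociclib libraries. The groups overlapped, and the means were 0.0873 ± 0.0154 and 0.105 ± 0.0423 (SD, n = 3; log2 odds 0.20, SE 0.460, edgeR adjusted p = 0.948). With the first exon at 21994821 to 21995269 the means were 0.649 ± 0.119 and 0.535 ± 0.210 from 28.2 reads per library (log2 odds -0.84, SE 0.917, edgeR adjusted p = 0.865), and the log2 odds ranged from -1.39 to -0.43 over its alternatives. These standard errors are wide, and a moderate shift would not have been detectable. The 2 events counted nearly the same inclusion reads, 32, 33 and 14 against 30, 33 and 14 in DMSO libraries. In palbociclib libraries these were 16, 30 and 21 against 16, 21 and 19. The skipping reads differed, with 106, 118 and 68 against 3, 8 and 4 in DMSO libraries. The 2 levels are therefore not separate measures of the exon's use with each first exon.

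Reads of the p14ARF-type first exon were also set against reads that CDKN2A transcripts share. The junction of the p16 first exon to exon 2 was not counted, so the product behind the lower RNA was not tested. Reads that joined the p14ARF-type first exon directly to exon 2, taken as a percentage of reads that joined exon 2 to exon 3, which transcripts of p16 and p14ARF share, were 36.3, 31.4 and 31.9% in DMSO. In palbociclib libraries they were 40.8, 29.5 and 25.1%. The means of 33.2 ± 2.697% and 31.8 ± 8.08% differed by less than the spread between replicates (SD, n = 3; exact permutation test, two-sided, p = 0.8), and this measure was chosen after its values were seen. A share that moved by several percent would not be seen here.

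The remaining events were almost all of 1 form. The CDKN1B exon at chr12:12718825-12718954 had a level of 0.995 ± 0.00897 in DMSO and 1.0 in every palbociclib library, from 331 reads per library. The CDKN2C exon at chr1:50970358-50970497 had 0.994 ± 0.00349 and 1.0, from 360.5 reads. The CDKN2A exon at chr9:21968575-21968771, between exons 2 and 3, had 0.0058 and 0.0062 from 267 reads, and the CDKN1A exon at chr6:36682640-36682730 had 0.0034 in DMSO and 0 in all palbociclib libraries from 68.5 reads. The other 3 CDKN1A events had 3.5 reads per library or fewer and were not described further.

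Around the inhibitors stand their binding partners, the cyclins and kinases and also PCNA. Of 11 such genes tested, 9 fell and 1 rose, beside 22.9% lower and 20.9% higher among all genes. Their median change was -1.31, beside 0.0023 over all genes. The riser was CCND1, which encodes cyclin D1, from 96.7 ± 2.25 to 202.7 ± 3.52 FPKM (SD, n = 3; log2 change 1.06). CCNA2 (cyclin A2) and CCNE2 (cyclin E2) changed by -3.73 and -3.65. CDK4, the shared target of the INK4 proteins and palbociclib, went from 97.4 ± 3.52 to 71.5 ± 3.88 FPKM (-0.44), and CDK2 from 61.3 ± 0.872 to 24.2 ± 1.80 FPKM (-1.31). CDK6 stood at 0.493 and 0.577 FPKM and was not called (limma adjusted p = 0.479).

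The machinery around the degradation of p27, p21 and p57 was tested in 15 genes, of which 7 fell and 2 rose (median -0.08). These counts take no account of whether a gene favours or limits that degradation. Among all genes 22.9% were called lower and 20.9% higher. DTL, which brings p21 to the CUL4 ligase, fell by 3.52, and CDC20, an activator of the anaphase-promoting complex, fell by 2.94. SKP2, the F-box protein that recognises p27, went from 18.4 ± 1.11 to 8.34 ± 0.479 FPKM (-1.05), and its cofactor CKS1B fell by 1.81. The calls of the 2 that rose were small and did not hold in each set of libraries. RNF123, a ligase for p27, was at 0.21 and lost its call without DMSO replicate 3 (limma adjusted p = 0.0654) and without palbociclib replicate 2 (0.0778). SKP1 was at 0.10 and lost its call without each of 5 of the 6 libraries (adjusted p 0.0537 to 0.104), and with quantile normalization 6 genes of this list were called higher.

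Of 14 transcription factors tested that are known to act on these genes, 4 fell and 2 rose (median -0.09), counts near the 22.9% and 20.9% of all genes. TP73, an activator of CDKN1A, went from 3.52 ± 0.0781 to 1.84 ± 0.101 FPKM (-0.67), and TFAP4, a repressor of CDKN1A, fell by 0.50. MYC (0.14, limma adjusted p = 0.0355) and its partner ZBTB17 (0.16, adjusted p = 0.0490), which together repress CDKN1A and CDKN2B, were just past the threshold, and at most 1 of them kept its call when any 1 of the 6 libraries was left out. With the replicate number as a block neither was called (limma adjusted p = 0.0509 and 0.0723). FOXO1, FOXO3 and FOXO4, activators of CDKN1B, were not called, at -0.13, 0.10 and 0.18.

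Polycomb proteins and the demethylase KDM6B, which act on the CDKN2A locus, were tested in 11 genes, with 5 lower and 3 higher (median -0.10), beside 22.9% lower and 20.9% higher among all genes. EZH2, the histone H3 lysine 27 methyltransferase, went from 26.8 ± 0.0782 to 8.50 ± 0.187 FPKM (-1.55), and its partner SUZ12 fell by 0.56. KDM6B, which removes that mark, rose from 6.41 ± 0.465 to 10.6 ± 0.600 FPKM (0.64), and PCGF2 rose by 0.19. The fall of CDKN2A RNA thus stood beside a lower EZH2 and a higher KDM6B RNA, and a link between them was not tested.

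On chromosome 9p21, both neighbours of CDKN2A that could be tested were lower, as were 22.9% of all genes tested. CDKN2B-AS1, the long noncoding RNA that runs antisense to CDKN2B, read 4.11, 4.27 and 3.91 FPKM in DMSO and 1.41, 1.38 and 1.86 in palbociclib libraries. The groups were apart, and it fell from 4.10 ± 0.182 to 1.55 ± 0.271 FPKM (SD, n = 3; log2 change -1.01, SE 0.0883, limma adjusted p = 3.96e-05). The log2 change of CDKN2B-AS1 deposited by the authors was -1.41. MTAP, a methionine salvage enzyme, fell from 16.1 ± 0.126 to 11.0 ± 0.338 FPKM (-0.52). CDKN2B, which CDKN2B-AS1 overlaps, was at 0.18 and not called.

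A further list of genes around cyclin-dependent kinases gave 6 lower and 0 higher among 10 tested, with a median of -0.43. Among all genes 22.9% were lower and 20.9% higher. By unadjusted limma p under 0.05 there were also 0 higher in the list. Not all of its genes restrain these kinases, since it also held RB1, CDKN2AIP and CDKN2AIPNL. PKMYT1, a kinase that holds CDK1 inactive, fell by 3.38 and CDKN3, a phosphatase of CDK2 and CDK1, fell by 2.71. RBL1, which encodes the pocket protein p107, fell by 1.75, and RB1, the protein that CDK4 and CDK6 switch off, went from 25.6 ± 0.105 to 16.8 ± 0.445 FPKM (-0.58).

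**Figure D5:**
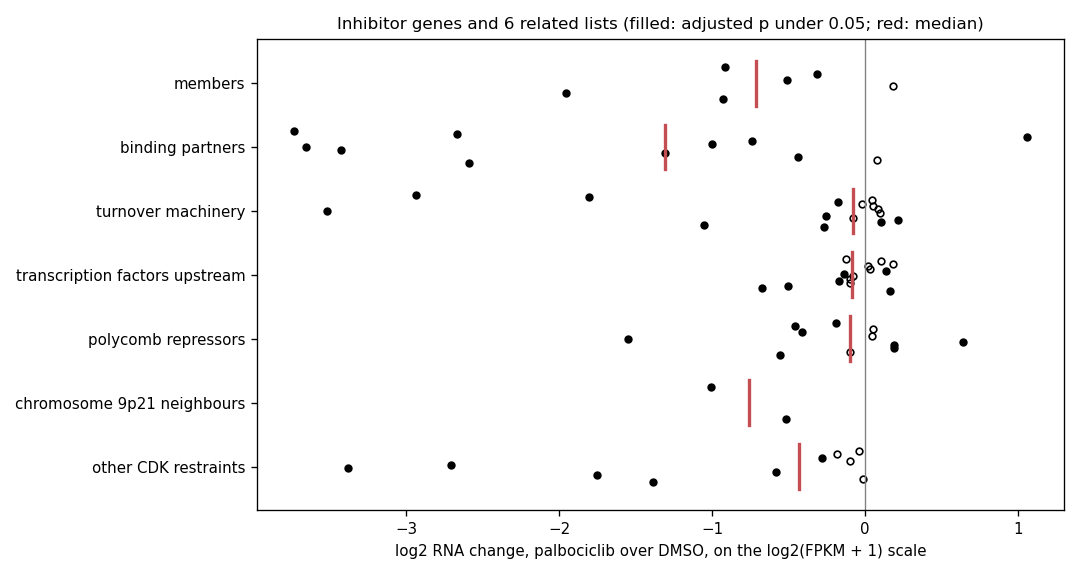
Log2 RNA changes, palbociclib over DMSO, on the log2(FPKM + 1) scale for the inhibitor genes and 6 related lists, with a point for each tested gene, filled where the limma adjusted p was under 0.05, and the list's median in red. The medians ran from -1.31 for the binding partners to -0.08 for the turnover machinery, and the inhibitor genes spanned -1.96 (CDKN2C) to 0.18 (CDKN2B).

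For each member that fell, the genes most like it over the 6 RNA libraries were found among 9636 genes averaging 5 FPKM or more, by the root mean square difference of log2 values centred on each gene. Since the treatment step makes up most of that pattern, likeness is mainly of size. CDKN2C was closest to NMU, a neuropeptide gene (difference 0.0476, log2 change -1.96), and POC1A, a centriole gene (0.0590, -1.99). CDKN2D was closest to PRKDC, the DNA-dependent protein kinase gene (0.0227), and KANK2 (0.0308). CDKN1A was closest to POLH, which encodes a translesion polymerase (0.0629), and GRK6 (0.0679), CDKN1B to GLRX2 (0.0179) and MTARC1 (0.0214), and CDKN2A to EMSY-DT (0.0420) and JADE1 (0.0425).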

How the data were processed

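RNA values were FPKM per library and the authors' DESeq2 table of mean normalized counts (a signal value), log2 fold changes, a Wald score and p-values, as deposited. Splicing tables (rMATS output, per the file headers) held counts of inclusion and skipping reads, inclusion levels and a score of level differences deposited by the authors. ATAC values were counts per peak, made with featureCounts over 1 peak set, per the file headers. GRCh38 and, for RNA, Salmon 1.10.2, STAR 2.7.10b and DESeq2 1.44.0, and for ATAC Bowtie2, Picard 3.4.0 and MACS3 3.0.3 are named in the submitters' processing notes, with no role. The counting strand and annotation are not given in the sources used here. FPKM hides depth, so no counting interval was given for RNA.

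RNA was tested in R 4.3.3 with limma 3.58.1 (trend on intensity) after log2(FPKM + 1), for genes averaging 0.5 FPKM or more. Peak counts were compared with the edgeR 4.0.16 quasi-likelihood test after TMM and filterByExpr, which removed 0 peaks, with DESeq2 1.42.0 as an alternative. A peak was assigned within 10 kb of a gene and called a start peak within 1 kb. Splicing was tested with edgeR on both read counts, as the interaction of form and treatment with libraries as terms. P-values were Benjamini-Hochberg adjusted over all genes, peaks or events of a type. SEs of edgeR values follow from the F statistic. Each procedure was tested on simulated data. All 12 libraries were kept, grouped by the labels, and every column matched a label. The labels do not say that replicate numbers mark pairs.

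The members, lists and motifs were chosen with earlier results of these data known. Named were all members, list genes with the largest changes each way (up to 2), genes whose function needed a value, the 2 most alike genes per called member, and start peaks or called peaks. FAF1 was added after its shared peak was seen. Alternatives covered the pseudocount, filters, normalization, trend, flank, replicate block and leaving out each library. Gene starts and sequences came from RefSeq on GRCh38.p14. CDKN1C had no entry in the set of start sequences used, although RefSeq places the gene on chromosome 11. Listed genes that the RNA table does not hold (CCND2, CCNA1, DMRTA1, KRT5, KRT14, PDGFRB, PTPRC, CD3E, PECAM1, VWF and CDH5) were not analysed here. Of the genes and lists first chosen, 1 gene and 1 list are not reported here.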

Additional observations from a re-analysis of the deposited data

How the results depend on the processing

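The 5 members called lower in RNA numbered 5, and those called higher 0, under each alternative run: a pseudocount of 0.1, no filter, a mean FPKM of at least 5 (which left out CDKN2B), quantile normalization, no trend, and without each library. All 71 alternative values of the 6 tested members kept direction and side of the threshold. CDKN2C ranged from -2.14 to -1.87, CDKN1B from -0.35 to -0.21, and CDKN2B from 0.07 to 0.28 (limma adjusted p 0.0683 to 0.578). Of 464 alternative values of 39 other named genes, 441 kept direction and call and 23 lost the call, all of RNF123, SKP1, ZBTB17 or MYC. Over all lists, 8 genes were called higher, against 13 with quantile normalization, 5 with no trend and 5 to 7 without each library (5 without DMSO replicate 1 or 2 or palbociclib replicate 1 or 2), and 33 lower, with a range of 28 to 34. The difference in CDKN1C, 0.0152 FPKM, ranged from -0.108 to 0.117 without each library, with its sign turned without DMSO replicate 3 or palbociclib replicate 1.

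Of 55 alternative peak values, 54 kept direction and call. The CDKN2C peak turned to 0.0085 with an offset smoothed on abundance (edgeR adjusted p = 0.939, range over its alternatives 0.494 to 0.939). Within 50 kb in place of 10 kb, 5 member peaks were called lower and 1 higher. No splicing event of a member was called under any alternative run. The CDKN2A exon with the p14ARF-type first exon turned from 0.20 to -0.11 in log2 odds without palbociclib replicate 2, and ranged up to 0.60 without other libraries (edgeR adjusted p = 0.983, range 0.810 to 0.992).

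With the replicate number as a block, 5 members stayed lower in RNA and 4 peaks lower in accessibility, and 0 splicing events were called, so the pairing changed no call of a member. Among the other named genes, MYC (limma adjusted p = 0.0509) and ZBTB17 (0.0723) lost their calls with the block. Same-numbered RNA libraries had correlations of 0.106, -0.0051 and 0.0879 of their deviations, and ATAC libraries 0.0056, 0.0417 and -0.0277. The highest with a DMSO library of another number were -0.0515, 0.0502 and 0.0509 for RNA. For ATAC these were -0.0026, 0.0326 and 0.0607. All of these values are small, and they do not settle whether the numbers mark pairs.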

Other observations

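Within 50 kb of the members lay 14 further peaks, of which 2 were called, 1 in each direction, beside 6.46% called lower and 5.41% higher among all peaks. A peak at chr11:2933308-2933946, on the side of CDKN1C, was higher, from 47.6 ± 5.24 to 55.6 ± 3.89 CPM (SD, n = 3; log2 change 0.22, edgeR adjusted p = 0.0279), with overlapping groups. A peak at chr19:10520904-10521350, 45110 bases from CDKN2D, was lower, from 19.7 ± 1.56 to 15.7 ± 1.76 CPM (log2 change -0.32, edgeR adjusted p = 0.0338). Other genes lie in these stretches, and which gene either peak belongs to was not tested.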
